A study of Homo sapiens with 4 samples.

Results

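The transcripts described here are those of the ATG8 family and of the machinery that starts an autophagosome, 10 genes named by symbol: MAP1LC3B, GABARAP, GABARAPL1, GABARAPL2, SQSTM1, ULK1, WIPI1, BECN1, ATG9A and ATG14. Rows of the count table were taken by gene symbol, out of 14540 rows for 12153 genes. Of the 10 genes, 8 had 10 rows between them, and where a gene had several rows its main row was the one with the highest count summed over the libraries. Expression of WIPI1 and ATG9A was not analysed here. RNA came from the human hepatocellular carcinoma line PLC/PRF/5, in 2 groups of 2 libraries. The PLC-shUSP22 libraries came from cells with lentiviral knockdown of USP22, a ubiquitin protease of the SAGA coactivator complex, and the PLC-NC libraries from cells labelled control. Cells of both groups were grown in high-glucose DMEM and kept at 1% oxygen and 5% carbon dioxide for 48 hours, so the comparison is of knockdown with control in hypoxia, and no normoxic library was analysed here. The hairpin, the virus given to the control cells and whether the replicates were separate cultures are not given in the labels, so p-values rest on a spread between libraries that may be technical.

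Macroautophagy wraps cytoplasm in a double membrane that closes into an autophagosome and fuses with a lysosome. The ULK1 kinase complex starts the process, the lipid kinase complex that holds BECN1 and ATG14 marks the site with phosphatidylinositol 3-phosphate, which WIPI proteins bind, and ATG9A vesicles supply membrane. ATG8 proteins, of the LC3 and GABARAP subfamilies, are then coupled to phosphatidylethanolamine on the growing membrane, where receptors such as SQSTM1 (p62) tie cargo to them and are degraded with it. In liver this pathway turns over organelles, lipid and protein aggregates, and SQSTM1 protein accumulates when it is blocked. The values below are of mRNA and measure neither autophagosomes nor their flux.

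Promoter sequences are shown for the ATG8 genes whose transcripts passed the test, MAP1LC3B and GABARAPL1, and for GABARAP, a paralog that did not pass. Each is 300 bases of RefSeq sequence on GRCh38.p14, 250 before and 50 after the annotated start, read 5′ to 3′ on the gene's strand. Capitals mark matches, on either strand, to short motifs: CACGTG (core of lysosomal CLEAR elements), ACGTG and GCGTG (cores of hypoxia response elements), TGACGTCA (cyclic AMP response element), GTAAACA (core bound by FOXO factors) and TGACNNNGC (core of antioxidant response elements). CACGTG contains ACGTG.
MAP1LC3B (chr16:87392086-87392385, plus strand): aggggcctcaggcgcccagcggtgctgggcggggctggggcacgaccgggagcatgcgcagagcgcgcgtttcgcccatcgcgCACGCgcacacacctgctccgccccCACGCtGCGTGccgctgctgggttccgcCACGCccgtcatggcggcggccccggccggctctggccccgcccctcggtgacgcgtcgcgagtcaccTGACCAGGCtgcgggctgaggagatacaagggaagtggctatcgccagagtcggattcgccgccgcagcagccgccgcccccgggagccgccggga
GABARAPL1 (chr12:10212627-10212926, plus strand): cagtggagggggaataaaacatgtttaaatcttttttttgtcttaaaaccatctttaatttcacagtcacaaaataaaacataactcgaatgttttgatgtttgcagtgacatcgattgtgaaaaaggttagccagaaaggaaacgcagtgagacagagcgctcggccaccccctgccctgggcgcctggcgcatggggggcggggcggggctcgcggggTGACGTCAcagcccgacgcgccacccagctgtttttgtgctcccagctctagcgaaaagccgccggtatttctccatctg
GABARAP (chr17:7242400-7242699, minus strand): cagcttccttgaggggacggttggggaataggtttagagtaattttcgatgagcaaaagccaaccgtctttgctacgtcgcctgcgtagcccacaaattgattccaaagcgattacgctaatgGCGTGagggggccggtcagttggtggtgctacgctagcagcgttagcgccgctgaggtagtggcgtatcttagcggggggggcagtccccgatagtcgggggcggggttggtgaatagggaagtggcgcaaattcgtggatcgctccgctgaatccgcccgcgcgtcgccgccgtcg
The MAP1LC3B window held 4 matches to GCGTG and 1 to TGACNNNGC, the GABARAPL1 window 1 to TGACGTCA, and the GABARAP window 1 to GCGTG. Of 35116 promoter windows of this length, 36.5% held GCGTG, 13.3% held TGACNNNGC and 1.85% held TGACGTCA, each at least once. How many windows held GCGTG 4 times was not counted. GCGTG was also in the windows of GABARAPL2, ULK1 and ATG14, whose transcripts did not pass the test. ACGTG was held by 21.4% of all windows, and among the 10 genes by GABARAPL2, ATG9A and ATG14. CACGTG was in 7.26% of all windows and, among the 10 genes, in that of ATG14, while GTAAACA, in 3.42% of windows, was in none of theirs. These matches describe letters in a window and are not evidence of binding.

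The libraries held 15027209 and 17194929 counts in knockdown and 15621574 and 16536639 in control cells. The USP22 transcript, the target of the knockdown, had 5438 and 7683 counts in knockdown libraries, against 46513 and 41607 in control libraries. All 10 hepatocyte lineage genes that were looked up had a row, among them albumin (ALB), alpha-fetoprotein (AFP), APOB and transferrin (TF), but their levels were uneven. TTR, APOA1 and SERPINA1 averaged 19.0, 20.3 and 20.1 CPM in knockdown and 29.1, 22.0 and 21.6 CPM in control cells. These levels lay below those of the leukocyte marker CD68, at 26.3 CPM in knockdown and 33.7 CPM in control cells. Of the 10 genes, AFP (log2 fold change 1.12), APOB (1.11) and FGB (1.19) were higher and AHSG (−0.92) lower in knockdown at an adjusted p under 0.05 in edgeR's test, and 6 did not pass. HNF4A had few counts, 23 and 18 in knockdown and 1 and 5 in control libraries. Summed, the 10 genes had 44800 and 35300 CPM in knockdown libraries and 30200 and 28400 CPM in control libraries. APOB alone gave 27500 and 16600 CPM of this in knockdown and 11600 and 8800 CPM in control libraries. TF, also high, had 14100 and 15400 CPM in knockdown and 16400 and 17000 CPM in control libraries. The direction of the sum thus followed APOB and was not shared by all markers. Of 6 markers of leukocytes, endothelium and fibroblasts, CD68, CDH5, COL1A1 and PECAM1 were measured and summed to 55.2 to 63.3 CPM in knockdown and 54.0 to 58.9 CPM in control libraries. PECAM1 alone of these passed the test, at 25.3 ± 4.19 CPM in knockdown and 12.4 ± 3.32 CPM in control cells (SD, n = 2 each, edgeR's adjusted p = 0.0185), and the part of these marker shifts in the results was not tested. Levels are in CPM, a row's counts set relative to the library size after TMM normalization.

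MAP1LC3B, which encodes LC3B, the ATG8 protein most used as a marker of autophagosomes, fell most of the members. Its row had 3193 and 3511 counts in knockdown libraries, against 12065 and 11760 in control libraries, which is 211 and 204 CPM in knockdown and 762 and 727 CPM in control. The replicates of each group lay close together and the groups were far apart. The log2 fold change of knockdown over control was −1.84 ± 0.16 (SE), so that 27.9% of the control level remained (25.1% to 31.1% within 1 SE), with an adjusted p of 8.5e-06. This p, like the others given for single transcripts, is from edgeR's quasi-likelihood test with Benjamini-Hochberg adjustment over the 12337 rows tested. Among the main rows of the 10777 genes tested, 488 (4.53%) had a log2 fold change as low or lower. By mean CPM its row ranked 1060 among tested rows in knockdown cells and 185 in control cells. In bulk RNA, fewer cells expressing a gene and less RNA of it per cell cannot be told apart.

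GABARAPL1, a GABARAP paralog that several stress-responsive transcription factors induce, fell as well, by less. It had 167 and 150 CPM in knockdown libraries, against 266 and 266 CPM in control libraries, and the groups did not overlap. The log2 fold change was −0.75 ± 0.16 (SE, adjusted p = 0.00588), a level of 59.5% of control. A decrease of this size or more was seen in 17.1% of the main rows of all genes. RefSeq now lists 2 mRNA accessions for GABARAPL1, and its 1 row here is that of NM_031412.2.

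GABARAP and GABARAPL2 (GATE-16), the other ATG8 genes among the members, did not pass the threshold. GABARAP, which acts in autophagosome closure and in receptor trafficking, had 291 and 298 CPM in knockdown libraries, against 366 and 348 CPM in control libraries (log2 fold change −0.28 ± 0.15, adjusted p = 0.234). GABARAPL2, which also works in transport through the Golgi, had 111 and 100 CPM in knockdown libraries, against 141 and 128 CPM in control libraries (−0.35 ± 0.17, adjusted p = 0.175). In both genes the knockdown libraries lay below the control libraries without overlap, which at these SEs the test did not separate from replicate spread. Exons of GABARAP's transcript overlap those of AC120057.2 on the same strand over 42.3% of its length and those of AC120057.3 on the opposite strand, so its counts may hold reads of those genes or lack reads that both could claim.

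**Figure D1:**
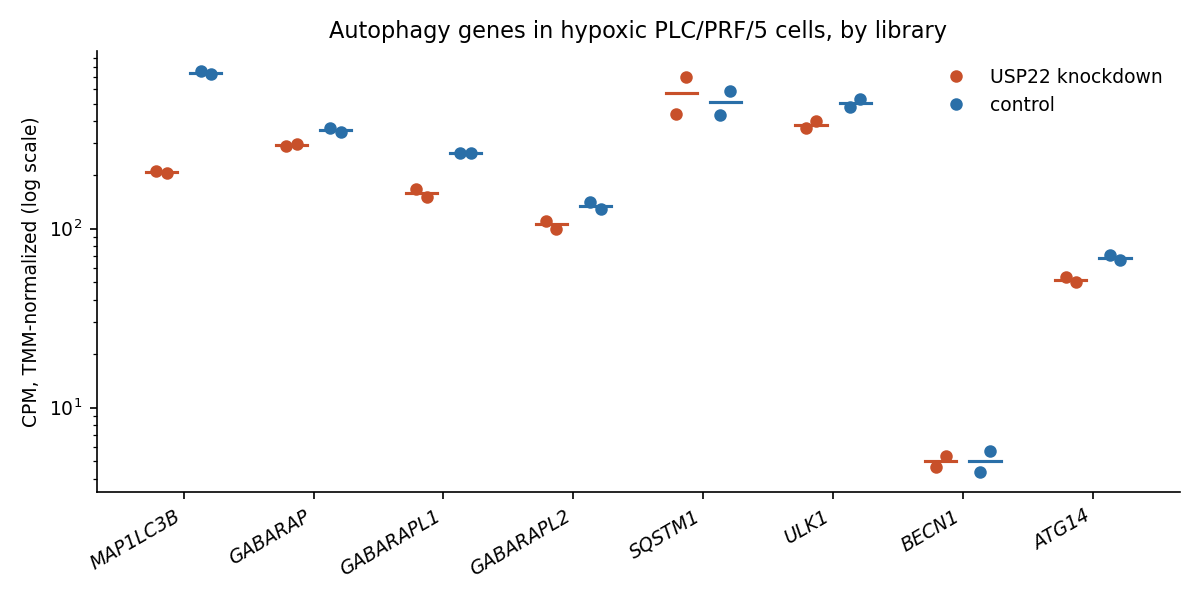
Level of the main row of each of the 8 measured genes, in CPM on a log axis, in the 2 knockdown libraries (orange, left) and the 2 control libraries (blue, right); points are libraries and bars are means. MAP1LC3B sits at 211 and 204 CPM in knockdown and 762 and 727 CPM in control, while the 2 knockdown libraries of SQSTM1, at 438 and 705 CPM, overlap those of control at 429 and 587 CPM.

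CPM divided by transcript length in kilobases allow levels to be set beside each other. Lengths were those of the GENCODE transcript matched to each accession, 2688 bases for MAP1LC3B, 1634 for GABARAP, 1957 for GABARAPL1 and 1002 for GABARAPL2. Orders and shares between genes depend on these lengths, and other lengths were not tried. Before scaling, MAP1LC3B was also the highest in control cells, at 744 CPM beside 357 CPM for GABARAP. In knockdown cells its unscaled 208 CPM lay between GABARAP at 294 CPM and GABARAPL1 at 158 CPM. In control cells MAP1LC3B was the most abundant ATG8 transcript among the members, at 277 ± 9.09 CPM per kb (SD, n = 2). It was followed by GABARAP at 218 ± 8.16, GABARAPL1 at 136 ± 0.0335 and GABARAPL2 at 134 ± 9.65 CPM per kb (SD, n = 2). GABARAPL1 and GABARAPL2 overlapped there and the other neighbours did not. In knockdown cells the order was GABARAP at 180 ± 3.02, GABARAPL2 at 105 ± 7.37, GABARAPL1 at 80.8 ± 6.14 and MAP1LC3B at 77.3 ± 1.75 CPM per kb (SD, n = 2). There GABARAPL1 and MAP1LC3B overlapped. On this length-scaled measure, the transcript at the top of the order in control cells shared the bottom of it in knockdown cells.

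The make-up of the ATG8 members differed accordingly. MAP1LC3B gave 17.4% and 17.5% of the summed length-scaled ATG8 level in knockdown libraries, against 36.1% and 36.2% in control libraries. GABARAP gave 39.4% and 41.9% in knockdown libraries, against 28.6% and 28.5% in control libraries. GABARAPL1 had a like share, 18.8% and 17.6% in knockdown libraries and 17.3% and 18.2% in control libraries, which overlap. The ratio of MAP1LC3B to GABARAP was 0.441 and 0.418 in knockdown libraries and 1.26 and 1.27 in control libraries. The summed level of the 4 genes was 444 ± 12 CPM per kb in knockdown and 765 ± 26.9 CPM per kb in control cells (SD, n = 2 each), and MAP1LC3B accounted for 62.0% of the difference. An exact two-sided permutation test gave p = 0.333 for the ratio, for the sum and for MAP1LC3B's share, which is the smallest p that 2 against 2 libraries allow.

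**Figure D2:**
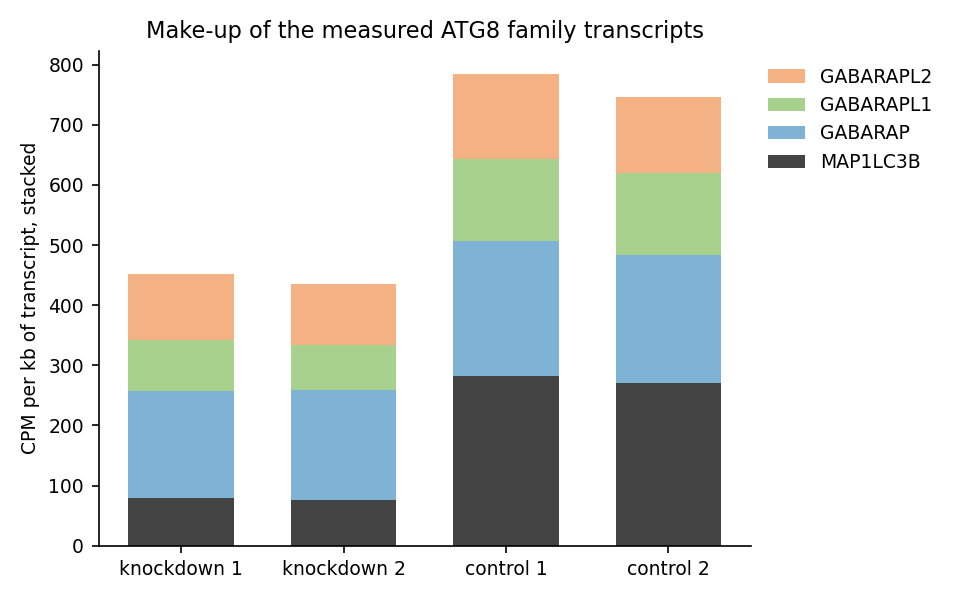
Length-scaled level (CPM per kb) of the 4 ATG8 members, stacked, in each knockdown (left) and control (right) library. The stacks reach 452 and 435 CPM per kb in knockdown and 784 and 746 CPM per kb in control, and the MAP1LC3B part at the bottom shrinks most.

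MAP1LC3B2, a near-identical copy of MAP1LC3B, was counted at 15 and 5 reads in knockdown libraries and 39 and 22 in control libraries, and did not pass (log2 fold change −1.58, adjusted p = 0.166). Reads of the pair can be assigned to either gene, so both values are uncertain. The other LC3 genes, MAP1LC3A and MAP1LC3C, were not analysed here. The orders, shares and sums above thus cover the ATG8 members alone and leave out MAP1LC3B2, MAP1LC3A and MAP1LC3C.

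SQSTM1, the p62 cargo receptor and an NRF2 target, did not pass, and its replicates disagreed. Its main row, NM_003900.4, had 438 and 705 CPM in knockdown libraries, against 429 and 587 CPM in control libraries. Replicate 2 was the higher library in each group, by 1.61 times in knockdown and 1.37 times in control, and the groups overlapped (log2 fold change 0.17 ± 0.22, adjusted p = 0.649). Without knockdown replicate 1 the value was 0.51. It was −0.21 without knockdown replicate 2 and −0.03 without control replicate 1, so leaving out either of these libraries reversed its sign. This main row held 97.9% of the gene's counts. The other rows, NM_001142298.1 with 5.22 and 10.2 CPM in knockdown libraries against 5.81 and 6.12 CPM in control libraries, and NM_001142299.1 with 4.89 and 6.41 CPM in knockdown libraries against 3.85 and 4.82 CPM in control libraries, did not pass either (adjusted p = 0.53 and 0.519). Of the matched SQSTM1 transcript 53.0% overlaps exons of MRNIP on the opposite strand, and the library kit does not mark strand.

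Among genes of initiation, ULK1, the kinase that starts autophagosome formation, was lower in knockdown libraries without passing the threshold. It had 364 and 399 CPM in knockdown libraries, against 481 and 528 CPM in control libraries. The groups did not overlap, and the log2 fold change was −0.40 ± 0.15 (SE, adjusted p = 0.0892). The authors' deposited table gives ULK1 a log2 fold change of −0.39 with a q-value of 0.0103.

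The lipid kinase subunits ATG14 and BECN1 did not pass. ATG14, which directs the kinase complex to sites of autophagosome formation, had 53.9 and 50.0 CPM in knockdown libraries, against 71.0 and 66.8 CPM in control libraries (log2 fold change −0.41 ± 0.18, adjusted p = 0.148), with no overlap between groups. BECN1 (Beclin 1), the scaffold of the complex, had 70 and 92 counts in knockdown libraries and 69 and 92 in control libraries (−0.01 ± 0.36, adjusted p = 0.991). BECN1 has 4 RefSeq mRNA accessions, its single row was thinly counted, and 37.6% of its matched transcript overlaps exons of CNTD1 on the opposite strand, so this row says little about the gene.

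**Figure D3:**
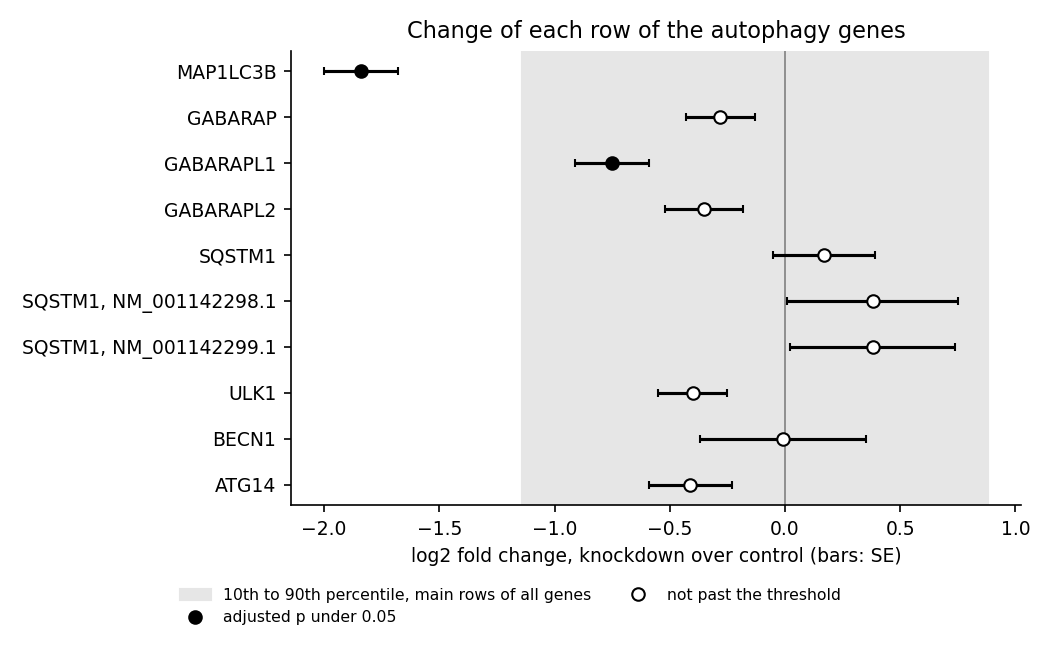
Log2 fold change of knockdown over control with its SE for all 10 rows of the measured genes; filled points passed an adjusted p of 0.05, and the grey band spans the 10th to 90th percentile, −1.14 to 0.88, of the main rows of all genes. MAP1LC3B lies outside the band at −1.84 and the others inside it.

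Counted together, 2 of the 8 measured members fell, 0 rose and 6 did not pass. All 10 rows passed the filter on low counts. Over the main rows of all genes tested, 11.1% fell and 9.08% rose. At an unadjusted p under 0.05 in edgeR's test 4 members were lower (MAP1LC3B, GABARAPL1, ULK1 and ATG14) and 0 higher, beside 17.8% of all main rows lower and 15.7% higher. The knockdown libraries lay below the control libraries without overlap in 6 of 8 members and above them in 0 of 8, against 31.4% and 29.8% of the main rows of all genes. The members' median log2 fold change was −0.38, beside 0.00 over all main rows. The authors' deposited table gives q-values of 8.35e-57 for MAP1LC3B and 2.6e-07 for GABARAPL1, and with ULK1 it has 3 members lower at a q under 0.05, a call made for 11.4% of its rows in that direction. DESeq2 called MAP1LC3B and GABARAPL1 lower and no other member, and 9.79% of all rows lower.

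**Figure D4:**
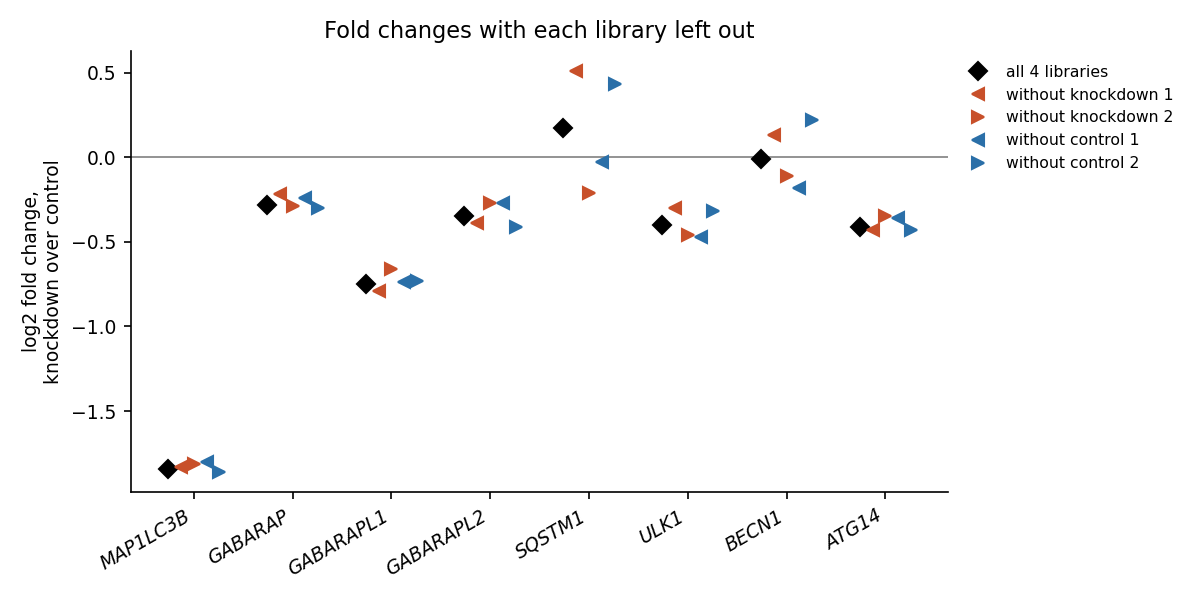
Log2 fold change of each measured gene with all 4 libraries (diamond) and with each knockdown (orange) or control (blue) library left out. MAP1LC3B stays between −1.86 and −1.80 and GABARAPL1 between −0.79 and −0.66, whereas SQSTM1 runs from −0.21 to 0.51.

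The rest of the pathway was read from 55 further autophagy genes in 8 groups by role. Of these, 45 had a row and 39 were tested. Among these 39 genes 2 fell and 2 rose, 35 missed the threshold, and the median log2 fold change was −0.09. Over the main rows of all genes, 11.1% fell and 9.08% rose. Many of them have several RefSeq mRNA accessions and few counts in each row.

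WDR45B (WIPI3), a relative of WIPI1 that binds phosphatidylinositol 3-phosphate, fell. It had 745 and 727 CPM in knockdown libraries, against 1920 and 1710 CPM in control libraries. The log2 fold change was −1.30 ± 0.15 (adjusted p = 9.28e-05), a 2.46-fold decrease. It was the 1 gene called among 5 tested genes of membrane supply, where its paralog WDR45 had 16.5 CPM in knockdown and 16.7 CPM in control cells on average (adjusted p = 0.988).

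Of 6 tested genes of the class III lipid kinase, 1 rose and 1 fell. PIK3R4 (VPS15), the regulatory subunit that every form of the complex holds, rose, with 97.7 and 91.1 CPM in knockdown libraries against 47.6 and 48.5 CPM in control libraries (0.97 ± 0.18, adjusted p = 0.00253). NRBF2, which joins the ATG14 form of the complex, fell, with 84 and 115 counts in knockdown libraries against 179 and 248 in control libraries (−1.12 ± 0.30, adjusted p = 0.0215). NRBF2 no longer passed when control replicate 2 (adjusted p = 0.147) or knockdown replicate 1 (adjusted p = 0.0568) was left out. PIK3C3, the catalytic subunit, UVRAG, AMBRA1 and RUBCN did not pass (lowest adjusted p = 0.152). Their log2 fold changes were −0.71 ± 0.33, −0.43 ± 0.2, 0.99 ± 0.51 and 1.1 ± 0.5 (SE), in that order. AMBRA1 had 49 and 45 counts in knockdown libraries and 18 and 29 in control libraries. RUBCN had 69 and 79 counts in knockdown and 51 and 17 in control libraries. Such thin counts leave the changes of AMBRA1 and RUBCN uncertain.

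WDFY3 (ALFY), a scaffold for clearing protein aggregates with SQSTM1, rose, with 186 and 137 CPM in knockdown libraries against 115 and 90.1 CPM in control libraries (0.65 ± 0.20, adjusted p = 0.0346). WDFY3 no longer passed when control replicate 2 (0.51, adjusted p = 0.222) or knockdown replicate 1 (0.45, adjusted p = 0.101) was left out. The other 4 tested cargo receptors, led by TAX1BP1 (adjusted p = 0.0756), did not pass. NBR1 had 19 and 3 counts in knockdown libraries and 34 and 16 in control libraries. OPTN had 22 and 15 counts in knockdown and 55 and 24 in control libraries. CALCOCO2 had 9 and 14 in knockdown and 12 and 12 in control libraries. NBR1, OPTN and CALCOCO2 were thus too thinly counted to show a moderate change.

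In the remaining groups none of the tested genes passed: 7 of fusion with lysosomes, 7 of ATG8 conjugation and processing, 6 of upstream control, 2 of the ULK complex and MAP1LC3B2. The fusion genes were well counted and close to 0, with log2 fold changes from −0.18 to −0.01. LAMP1, a lysosomal membrane protein, had 1450 CPM in knockdown and 1580 CPM in control cells on average, and RAB7A, a GTPase of late endosomes, 472 CPM in knockdown and 535 CPM in control cells. Of the upstream genes, MTOR, the kinase that restrains ULK1, had 382 CPM in knockdown and 376 CPM in control cells on average, and PRKAA2, a catalytic subunit of AMPK, had 61.5 CPM in knockdown and 65.5 CPM in control cells. The conjugation genes, led by ATG16L2 at 3.44 CPM in knockdown and 5.15 CPM in control cells and ATG4B at 3.29 CPM in knockdown and 3.79 CPM in control cells, were too thinly counted to show a moderate change. In the ULK complex ATG101 had 22.7 CPM in knockdown and 29.7 CPM in control cells and RB1CC1 had 6.49 CPM in knockdown and 5.99 CPM in control cells.

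**Figure D5:**
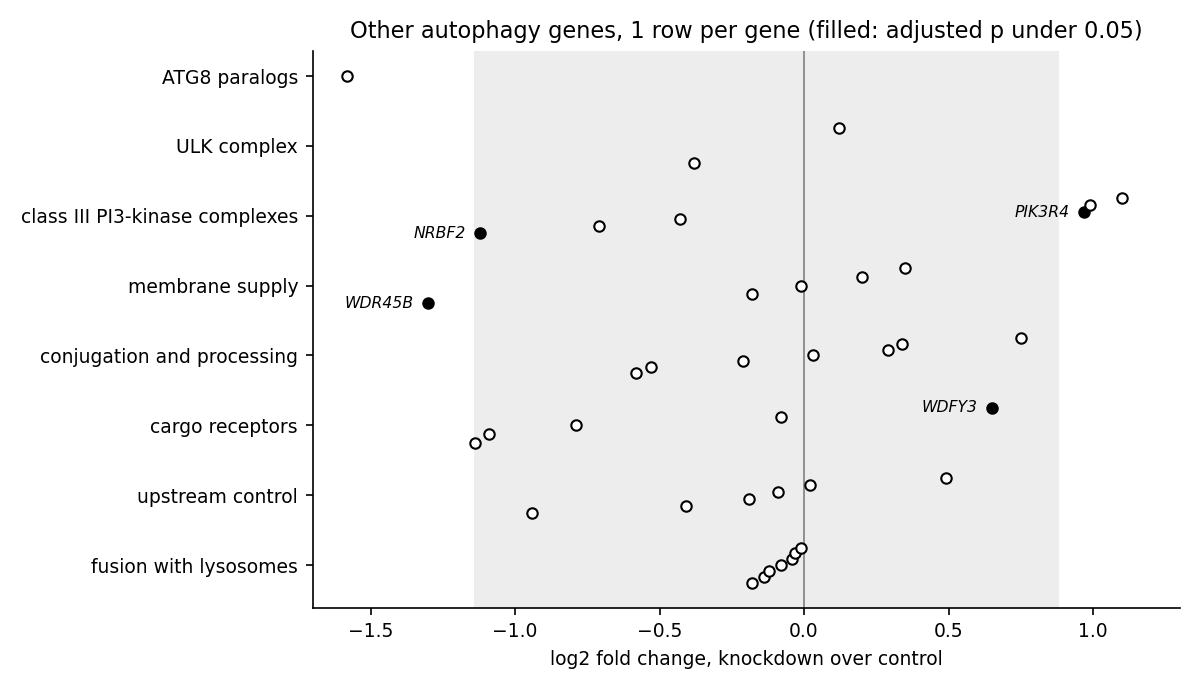
Log2 fold change of knockdown over control for the 39 tested autophagy genes outside the ATG8 and initiation set, 1 row per gene, by role; filled, named points passed an adjusted p of 0.05 and the grey band is the 10th to 90th percentile of all main rows. WDR45B and NRBF2 lie on the lower side, PIK3R4 and WDFY3 on the upper side.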

How the data were processed

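RNA of 4 libraries (2 knockdown, 2 control) was analysed from the authors' deposited table of raw counts per RefSeq mRNA accession. Per the submitters' processing notes, bcl2fastq, HISAT2 2.1.0, HTSeq and the build hg19 are named, with no settings. The counting rule was not given in these sources. That deposited table also holds the authors' log2 fold changes, p-values and q-values, from a tool not named there.

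Rows were filtered with edgeR's filterByExpr (minimum count 10), which kept 12337 and removed 2203, normalized by TMM (factors 0.979 to 1.01) and tested without a covariate by edgeR 4.0.16's quasi-likelihood test (R 4.3.3), with Benjamini-Hochberg adjustment and a threshold of 0.05. The SE is the absolute log2 fold change divided by the root of F. DESeq2 was version 1.42.0. Scripts were tested on simulated data. The 2 libraries of a group differed beyond counting noise (chi-square per degree of freedom 33.7 in knockdown, 17.9 in control). Lengths and exon overlaps came from GENCODE release 29 (GRCh38), accessions per gene and promoters from RefSeq. The promoter coordinates are those of the RefSeq table on GRCh38.p14, and none are given on the authors' build.

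Named were all members, listed autophagy genes past the threshold and, in other groups, the 2 with the highest mean CPM. GENCODE overlap partners, TAX1BP1, NBR1, OPTN, CALCOCO2, WDR45, PIK3C3, UVRAG, AMBRA1 and RUBCN were further named after their values were seen. Members and lists were chosen with earlier results of these data known. Alternatives were DESeq2 size factors, DESeq2, other filters, rows summed per gene, a replicate block and leaving out each library.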

Additional observations from a re-analysis of the deposited data

How the results depend on the processing

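The directions of MAP1LC3B, GABARAP, GABARAPL1, GABARAPL2, ULK1, ATG14 and USP22 held under all 10 alternatives, and MAP1LC3B and GABARAPL1 stayed past the threshold in each (highest adjusted p 8.59e-06 and 0.035). With the replicate number as a block, ULK1 passed (−0.40, adjusted p = 0.0116). Transcripts called higher then numbered 1672, against 1047, and those called lower 1859, against 1257. Listed autophagy genes called higher numbered 3, against 2, and those called lower 4, against 2. The block changed no other call of the members. Same-numbered libraries deviated together only weakly (r = 0.136 across 12337 rows, which are not independent), and the numbers are not shown to pair the samples.

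Leaving out each library gave 685 (without control replicate 1) to 1340 transcripts higher, 1 to 3 listed genes higher, 1 to 2 lower, and 0 to 1 members higher, the 1 being SQSTM1 without knockdown replicate 1. SQSTM1's main row ran from −0.21 to 0.51 and NM_001142298.1 from −0.18 to 0.82. BECN1, near 0, ran from −0.18 to 0.22 and was 0.00 with DESeq2 size factors, 0.00 with DESeq2, 0.01 with no filter and 0.01 with rows summed per gene. The cause of these shifts was not tested. In a fit without a library, the lone library of its group is assumed to vary like the other group. Counts per row limit BECN1, NRBF2, MAP1LC3B2, AMBRA1, RUBCN, NBR1, OPTN, CALCOCO2 and the conjugation genes, and intervals cover these libraries alone.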
